A study of Mus musculus with 6 samples.

Results

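Cholesterol synthesis was described through 26 genes of the mouse aortic wall: 19 enzymes of the mevalonate and cholesterol route (1 of them, Ggps1, on a side branch), 6 genes that sense or set the cell's sterol supply, and the sterol carrier gene Stard4. Members were picked out of the table by gene symbol and not by a cut on measured values, and all 26 were found among the 55487 genes of the deposited table. All 26 had mean normalized counts over 100 and were among the 20669 genes tested. A normalized count is a gene's read count after division by 1 scaling factor for its library.

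Cells make cholesterol from acetyl-CoA through mevalonate, isoprenoid diphosphates, squalene and lanosterol. The transcription factor SREBP-2, encoded by Srebf2, switches on genes of this route when sterols in the endoplasmic reticulum run low. SCAP then carries SREBP-2 to the Golgi, where the proteases encoded by Mbtps1 and Mbtps2 release its active part. When sterols are plentiful, the INSIG proteins hold SCAP and SREBP-2 back. In the artery wall, smooth muscle cells and macrophages can both synthesize cholesterol and take it up from lipoproteins.

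The RNA came from mouse aortas described as stripped to the media and intima, with 3 libraries in each of 2 groups. Markers of adipocytes and adventitial fibroblasts were nevertheless counted in several libraries, as given below, and how complete the stripping was is not tested. Every mouse carried Apoe-/-, received Apoe-/- bone marrow at 8 to 10 weeks of age, recovered for 4 weeks and ate a Western diet with 21% fat and 0.15 to 0.2% cholesterol for 6 weeks. Recipients labelled ChemR23e/e Apoe-/- carried, per the genotype label, the e allele of the gene for the chemerin receptor ChemR23. Their donor marrow was labelled Apoe-/- without that allele, so the e allele is read as lying outside the blood-forming lineage. These recipients are taken here as ChemR23-deficient, and recipients labelled Apoe-/- alone were the controls. The sources used here do not say what the e allele lacks, nor whether each library is a separate animal, so p-values measure the spread between these libraries. Read counts of every pair of libraries differed by far more than read sampling alone gives (chi-square per degree of freedom 25.4 to 112). The libraries are thus not repeat reads of 1 library, and how much of their spread is technical was not tested. Replicates 1 to 3 are numbered in order of deposition.

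Libraries held 30887855 to 38600604 reads assigned to genes. Cmklr1, which encodes ChemR23, had normalized counts of 2388, 1788 and 1551 under the deficient label and 1396, 1028 and 1720 in those labelled control. Cmklr1 was therefore not lower under the label taken as deficient (log2 difference 0.47, SE 0.21, limma adjusted p = 0.427). Whether its reads lie in a stretch altered by the e allele was not tested. In the deposited table, the column named for the treated mean holds the mean of the libraries labelled control. Groups are called labelled deficient and labelled control throughout, and each direction rests on those labels. Smooth muscle markers were abundant in all 6 libraries (Myh11 222327 to 335736), and the Schwann cell gene Sox10 had at most 11.1. Of the 8 smooth muscle markers limma called 0, and 6 had log2 differences above 0. Myocd went the other way, with 3340, 3549 and 5543 under the deficient label and 8589, 6271 and 7031 in the controls (log2 difference −0.84, SE 0.20, limma adjusted p = 0.155). Xist, expressed from the inactive X chromosome, stood at 16083, 13146 and 373 under the deficient label and at 8.87 to 22.0 in the controls. Y-linked Ddx3y stood at 8.54, 0 and 6374 under the deficient label and at 6058 to 6796 in the controls, so labelled deficient replicates 1 and 2 had almost no Ddx3y. Labelled deficient replicate 3 matched neither set, with Ddx3y at the level of the controls and Xist above theirs.

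The promoters of 6 members are shown because these genes had the widest range between libraries among the members with a promoter to show. Each runs from 250 bases before the RefSeq start of the gene to 50 bases after it (RefSeq, GRCm38.p6) and reads 5′ to 3′ on the gene's strand. Capitals mark CCAAT (the core of the NF-Y site), GGGCGG (the core of the Sp1 site) and CACGTG (the E-box that SREBPs can also bind), each in either orientation. Positions are chr17:12960676-12960975 (minus strand) for Acat2, chr13:8885356-8885655 (plus) for Idi1, chr1:169969156-169969455 (minus) for Hsd17b7, chr5:4104648-4104947 (minus) for Cyp51, chr8:64733529-64733828 (minus) for Msmo1 and chr5:28071162-28071461 (plus) for Insig1.
Acat2: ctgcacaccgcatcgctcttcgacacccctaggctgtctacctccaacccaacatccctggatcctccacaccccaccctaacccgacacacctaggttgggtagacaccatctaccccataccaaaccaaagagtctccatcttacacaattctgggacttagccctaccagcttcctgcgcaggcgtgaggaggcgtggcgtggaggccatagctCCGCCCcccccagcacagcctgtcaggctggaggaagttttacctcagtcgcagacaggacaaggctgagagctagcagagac
Idi1: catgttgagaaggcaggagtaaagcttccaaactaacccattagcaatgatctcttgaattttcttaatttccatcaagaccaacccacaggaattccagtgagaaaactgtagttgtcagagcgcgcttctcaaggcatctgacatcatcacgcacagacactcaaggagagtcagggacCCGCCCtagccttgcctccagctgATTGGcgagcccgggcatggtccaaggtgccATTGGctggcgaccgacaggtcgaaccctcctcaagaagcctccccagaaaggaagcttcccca
Hsd17b7: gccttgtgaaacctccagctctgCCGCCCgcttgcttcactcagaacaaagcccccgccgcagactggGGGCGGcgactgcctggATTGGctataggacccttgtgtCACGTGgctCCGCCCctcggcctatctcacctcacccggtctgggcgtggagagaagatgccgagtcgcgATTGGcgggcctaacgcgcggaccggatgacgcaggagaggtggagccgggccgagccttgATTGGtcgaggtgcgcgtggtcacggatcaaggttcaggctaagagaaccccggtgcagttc
Cyp51: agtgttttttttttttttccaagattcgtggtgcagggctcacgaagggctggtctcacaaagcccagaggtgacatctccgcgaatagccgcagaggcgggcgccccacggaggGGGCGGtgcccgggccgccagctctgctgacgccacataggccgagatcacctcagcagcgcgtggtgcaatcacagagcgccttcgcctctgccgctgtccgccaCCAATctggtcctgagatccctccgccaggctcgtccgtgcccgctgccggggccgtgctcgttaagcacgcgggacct
Msmo1: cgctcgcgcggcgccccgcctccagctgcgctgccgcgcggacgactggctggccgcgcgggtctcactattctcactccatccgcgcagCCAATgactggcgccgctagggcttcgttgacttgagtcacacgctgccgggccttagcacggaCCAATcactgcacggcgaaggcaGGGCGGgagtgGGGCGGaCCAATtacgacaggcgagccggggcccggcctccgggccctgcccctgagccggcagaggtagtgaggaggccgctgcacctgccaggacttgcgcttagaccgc
Insig1: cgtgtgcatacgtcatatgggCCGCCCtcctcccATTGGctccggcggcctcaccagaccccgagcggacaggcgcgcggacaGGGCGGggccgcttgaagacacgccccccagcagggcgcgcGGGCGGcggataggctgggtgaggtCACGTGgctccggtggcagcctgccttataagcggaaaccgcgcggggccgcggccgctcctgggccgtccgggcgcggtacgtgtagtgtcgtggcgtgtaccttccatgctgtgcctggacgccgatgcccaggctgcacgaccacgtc

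The sterol response element that SREBPs bind was searched for as the exact letters TCACNCCAC on both strands, so variant forms would be missed. No promoter of Sqle, Fdps, Fdft1 or Stard4 was searched. Among the member promoters searched, these letters stood in that of Hmgcs1 alone, 137 bases before the start. They are shown in capitals with their neighbouring bases (chr13:119690204-119690232, plus strand).
Hmgcs1: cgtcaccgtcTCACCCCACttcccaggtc

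The search covered 28 RefSeq promoters of 22 of the 26 members. TCACNCCAC was thus in 1 of 28 (3.57%), against 1.24% of all 32851 mouse promoters of the same length. CCAAT was in 18 of 28 (64.3%), against 37.4% of all. GGGCGG was in 22 of 28 (78.6%), against 35.7%, and CACGTG was in 6 of 28 (21.4%), against 7.15%. The comparison set was not limited to genes expressed here, as all members are. Whether these shares differ from those of other expressed genes was therefore not tested. CCAAT was found for 18 of the 22 genes, GGGCGG for 19 and CACGTG for 5 (Dhcr7, Hsd17b7, Insig1, Sc5d and Scap). The letters of the 4 motifs do not overlap one another in the printed promoters, and a match describes letters, not binding. Hsd17b7 and Msmo1 each carried 3 CCAAT boxes in the window, Idi1 carried 2, and Acat2 carried none.

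Levels between genes were compared as normalized counts per kb of annotated exon (GENCODE, GRCm38), as means ± SD over the 6 libraries. Insig2, which encodes an INSIG protein, stood highest at 850 ± 41.7 per kb. The protease gene Mbtps1 followed at 684 ± 22.8, then Ggps1 at 585 ± 57.7, Hmgcs1 at 523 ± 97.8 and Srebf2 at 495 ± 66.9. Neighbours among the last 3 of these lay within 1 SD of each other. Insig1 (371 ± 92.2) and Pmvk (337 ± 34.3) came next, followed by Sc5d (291 ± 33.1), Ebp (270 ± 13.9), Fdft1 (221 ± 36.9) and Scap (185 ± 3.28). Mvk, Msmo1, Cyp51, Nsdhl, Stard4, Acat2 and Sqle formed a plateau from 162 down to 128 per kb in which neighbours were closer than their spread. Idi1 (89.5 ± 27.2), Mbtps2 (76.9 ± 6.31), Lss (70.2 ± 9.39) and Mvd (60.4 ± 5.67) stood below it. The lowest members were Fdps at 49.03 ± 10.6, Hsd17b7 at 45.8 ± 12.4, Tm7sf2 at 41.9 ± 3.90 and Dhcr7 at 40.2 ± 3.34 per kb, and these 4 also overlapped. Regulators therefore took ranks 1 and 2, and the enzyme of the last reduction to cholesterol took rank 26. The exon length counts every annotated exon, so a gene with many rarely used exons reads low on this scale.

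**Figure D1:**
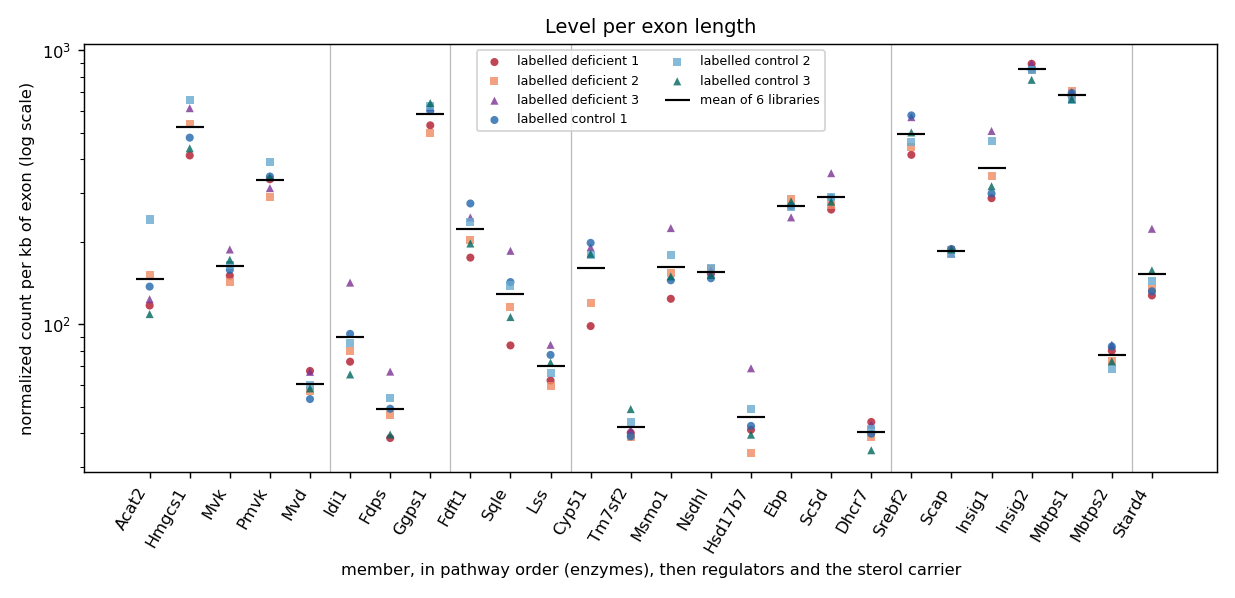
Normalized count per kb of exon (log axis) for each of the 26 members, with 1 point per library and a bar at the mean of 6 libraries; vertical lines separate the enzyme stages, the regulators and Stard4. Insig2 lies highest at a mean of 850 per kb and Dhcr7 lowest at 40.2.

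Among the 5 enzymes from acetyl-CoA to isopentenyl diphosphate, no gene passed the test between the groups. Acat2, the cytosolic thiolase that joins acetyl-CoA units, had normalized counts of 297, 385 and 313 under the deficient label and 348, 612 and 277 in the controls. Labelled control replicate 2 held the highest value and replicate 3 of the same group the lowest, a range of 1.14 on the log2 scale. Hmgcs1, the cytosolic HMG-CoA synthase and the gene with the TCACNCCAC match shown above, had 1894, 2477 and 2819 against 2200, 3018 and 2012. Its groups overlapped, with a log2 difference of −0.005 (SE 0.18). The 2 kinases that act on mevalonate had a smaller spread. Mvk ranged from 381 to 500. Pmvk had 578, 496 and 537 under the deficient label and 592, 671 and 588 in the controls, with every control above every labelled deficient library. This was the only member whose groups did not overlap, 1 of 26, where 17.0% of all genes tested did the same. Its log2 difference of −0.20 (SE 0.10) did not pass (limma adjusted p = 0.480). Mvd, the decarboxylase that forms isopentenyl diphosphate, was the lowest-counted member at 98.9 to 125.

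The 3 enzymes of isoprenoid diphosphates differed in how much they varied. Idi1, which interconverts the 5-carbon building blocks, had 255, 279 and 496 under the deficient label and 323, 299 and 229 in the controls. Labelled deficient replicate 3 stood above the other 5 libraries, and the difference of 0.22 had a 95% interval from −0.37 to 0.82. Fdps, the farnesyl diphosphate synthase, had 161, 195 and 282 against 207, 226 and 166, again with labelled deficient replicate 3 highest. Ggps1 makes geranylgeranyl diphosphate, the lipid attached to many small GTPases and not a precursor of cholesterol. Its values were 2507, 2348 and 2917 against 2829, 2956 and 3025, with labelled deficient replicate 3 inside the control range, and its log2 difference was −0.19 (SE 0.09, limma adjusted p = 0.462).

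Squalene formation and closure to lanosterol followed a similar order under the deficient label. Fdft1, the squalene synthase, had 739, 854 and 1035 there and 1164, 993 and 832 in the controls. Sqle, the squalene epoxidase and an oxygen-dependent control point of the route, had 463, 639 and 1026 against 789, 766 and 588. Sqle had the widest range of all members, 1.15 on the log2 scale, and both extremes lay in libraries labelled deficient. Lss, the cyclase that closes the ring to lanosterol, had 671, 639 and 906 against 832, 717 and 779. For all 3 genes labelled deficient replicate 3 was the highest of its group, and their log2 differences of −0.19, −0.08 and −0.09 had intervals that include 0. Fdft1 shares 774 exon bases (18.3% of its exon length) with Ctsb on the opposite strand. Ctsb, a lysosomal protease that macrophages express strongly, had 52619, 64144 and 35731 under the deficient label and 27133 to 33384 in the controls; the library kit keeps strand, and the strand setting of the counting was not given in the sources used here.

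Cyp51, the lanosterol demethylase, showed the largest difference in size among the members. It had 434, 526 and 841 under the deficient label and 873, 788 and 796 in the controls. Labelled deficient replicates 1 and 2 lay below all other libraries, while replicate 3 lay within the control range. The means were 600 ± 214 and 819 ± 47.2 (SD, n = 3 each), a log2 difference of −0.50 (SE 0.22, 95% interval −1.01 to −0.0007), which did not pass after adjustment (limma adjusted p = 0.411). Cyp51 was the only member with an unadjusted p under 0.05, 1 of 26 or 3.85%, against 12.2% of all genes tested. With a Y-linked covariate in the fit, which rests the group difference mostly on labelled deficient replicate 3, the log2 difference of Cyp51 was −0.07. Without labelled deficient replicate 3, Cyp51 was called lower (−0.78, SE 0.12, limma adjusted p = 0.0258); it was then the 1 member among the 131 genes called lower, which were 0.633% of the genes tested. Within the 4 libraries with Y-linked expression, which leave out labelled deficient replicates 1 and 2, its log2 difference was 0.04. The 2 low libraries are also those with high Xist and with the highest macrophage marker sums, and the part of either in the Cyp51 values was not tested. Cyp51 shares 3.76% of its exon bases with Akap9 on the opposite strand, which had 2434 to 2650 under the deficient label and 2943 to 3157 in the controls.

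**Figure D2:**
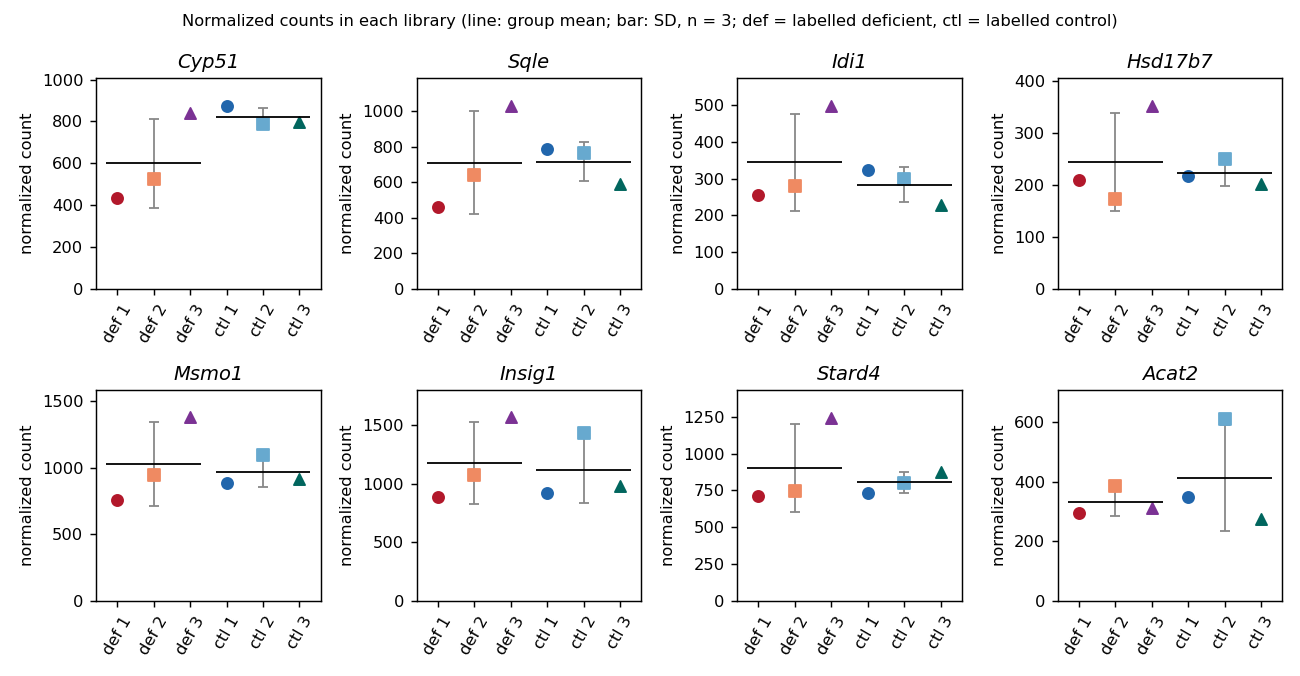
Normalized counts of 8 members in each library (y axes start at 0; line, group mean; bar, SD, n = 3), chosen for this plot after their values were seen. Labelled deficient replicate 3 is the highest library for Sqle, Idi1, Hsd17b7, Msmo1, Insig1 and Stard4, whereas Cyp51 is low in labelled deficient replicates 1 and 2 and Acat2 is high in labelled control replicate 2.

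The other 7 enzymes after lanosterol split into variable and steady genes. Msmo1, the oxidase that starts removal of the methyl groups at carbon 4, had 760, 942 and 1376 under the deficient label and 887, 1094 and 917 in the controls. Hsd17b7, a ketosteroid reductase that completes each methyl removal, had 210, 173 and 352 against 217, 251 and 201. Both were highest in labelled deficient replicate 3, and for both the lowest library also carried the deficient label. Nsdhl, the decarboxylating dehydrogenase that acts between these enzymes, ranged only from 419 to 456. Ebp, the sterol isomerase, ranged from 566 to 659 and was lowest in labelled deficient replicate 3. Nsdhl, Ebp and the regulator gene Mbtps2 lie on the X chromosome. Their ranges over the 6 libraries were 0.12, 0.22 and 0.30 on the log2 scale, and any link to Xist was not tested. Sc5d, the desaturase, had 1729 in labelled deficient replicate 3 and 1273 to 1413 elsewhere. Tm7sf2, a sterol reductase, ranged from 170 to 215, and Dhcr7, the reductase of the last step, from 201 to 255. Tm7sf2 shares 12.1% of its exon bases with Vps51 on the same strand (528 to 675), so some of its reads may be shared or left out.

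The regulators varied less between libraries than the enzymes, with a median range over the 6 libraries of 0.25 on the log2 scale against 0.50 for the 19 enzymes. Srebf2, which encodes SREBP-2, had 2977, 3191 and 4087 under the deficient label and 4148, 3325 and 3594 in the controls. Its lowest library was labelled deficient replicate 1 and its groups overlapped (log2 difference −0.12, SE 0.13). Scap, the escort of SREBP-2, was the steadiest member at 1345 to 1399. Its log2 difference of −0.004 had a 95% interval from −0.15 to 0.15, so a change beyond that size was outside the interval. Insig1, an INSIG gene that SREBPs themselves switch on, had 891, 1076 and 1567 against 926, 1436 and 985. The high values were in labelled deficient replicate 3 and labelled control replicate 2, 1 library of each group. Insig2, whose product does the same work and which is not switched on by SREBPs in the same way, ranged from 2704 to 3103. Mbtps1 ranged from 6902 to 7496 and Mbtps2 from 690 to 849; they encode the proteases that cut SREBP-2. Stard4, a cytosolic carrier that moves cholesterol between membranes, had 710, 748 and 1244 under the deficient label and 736, 801 and 877 in the controls. As with Idi1 and Sqle, labelled deficient replicate 3 was highest.

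Across the 26 members, 0 were called at an adjusted p under 0.05 by limma, against 28 of 20669 genes (0.135%). The adjusted p values of the members ran from 0.411 to 0.995. Of the members, 13 had log2 differences above 0 and 13 below, with a median of 0.01, where the median of all genes tested was −0.01. This balance depended on the libraries. The members' median was 0.16 with the Y-linked covariate, 0.17 in the 4 libraries with Y-linked expression and −0.15 without labelled deficient replicate 3, while that of all genes stayed between −0.01 and −0.001. An unadjusted p under 0.05 was then found for 4 of 26 members (15.4%) with the covariate, against 8.04% of all genes tested. In the 4 libraries it was found for 6 of 26 (23.1%), against 6.24% of all, and without labelled deficient replicate 3 for 4 of 26 (15.4%), against 14.0%. In the 4 libraries labelled deficient replicate 3 alone stands for its group. The covariate fit also rests its group difference mostly on that library. Summed Y-linked counts were 19.9, 0 and 10684 under the deficient label and 9968 to 10921 in the controls. These fits are therefore not separate checks. With the covariate the log2 differences of Idi1, Hsd17b7 and Stard4 were 0.73, 0.65 and 0.56, from 0.22, 0.07 and 0.12 without it. The 95% interval lay within ±0.25 for 5 members (Scap, Insig2, Mbtps1, Nsdhl and Ebp), within ±0.5 for 15 and within ±1 for 25, with 3 libraries a group. Enzymes before squalene, of squalene closure and after lanosterol gave medians of the same small size: −0.05 for the 5 early genes, 0.06 for the 3 isoprenoid genes, −0.09 for the 3 squalene genes and 0.03 for the 8 after lanosterol. DESeq2 on the recovered reads called 0 of the 26 members and 713 of 16291 genes (4.38%). The authors' deposited table likewise called 0 of 26, with adjusted p values from 0.354 to 0.997, and 691 of 15771 genes (4.38%). Because the RNA is from whole tissue, fewer cells of a type and less RNA per cell cannot be told apart for any of these values.

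**Figure D3:**
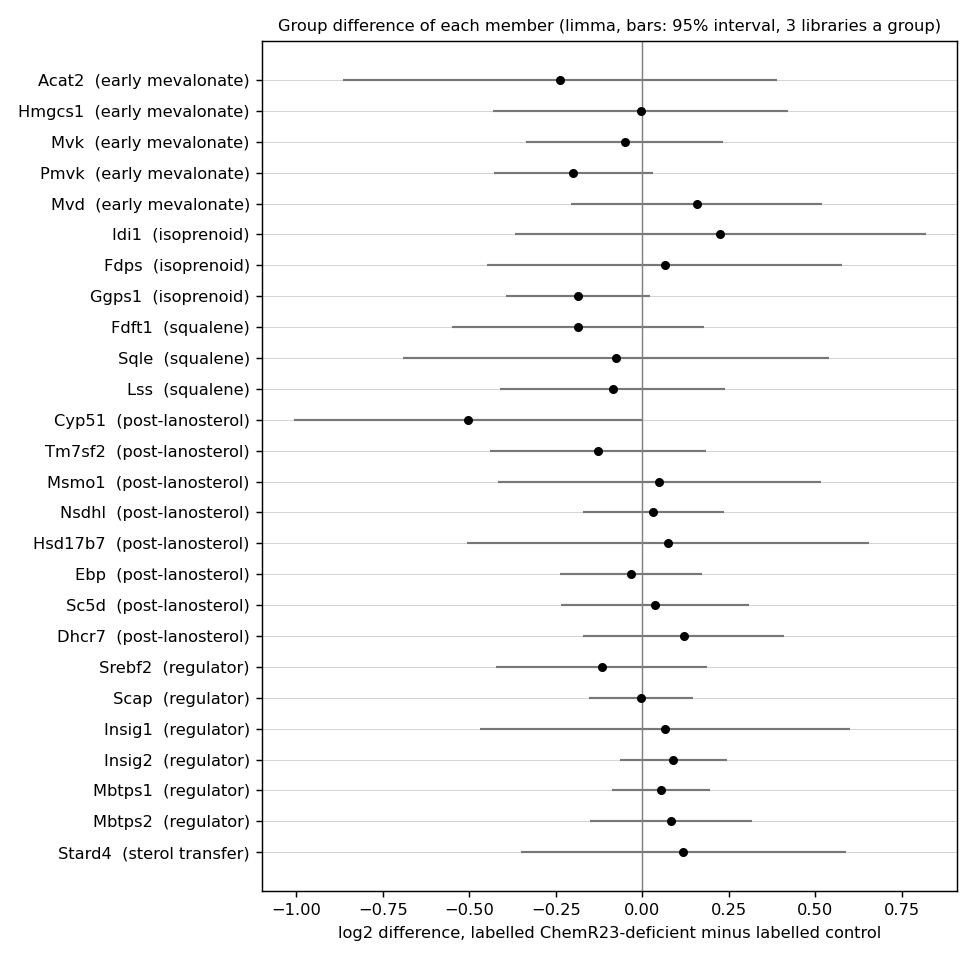
Log2 difference (labelled deficient minus labelled control) of each member with its 95% interval from limma, 3 libraries a group. Points lie on both sides of 0, and Cyp51 at −0.50 is farthest from it.

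Libraries of the same group differed widely for many members. The within-group SD had a median of 0.19 (log2) over the members, against 0.12 for the 11635 genes with means of at least 100. Their range over the 6 libraries had a median of 0.46 on the log2 scale, against 0.36 for those genes and 0.69 for all genes tested, which include many of low count. A range over 0.8 was found for 9 of 26 members (34.6%), against 13.0% of the genes with means of at least 100 and 45.9% of all genes tested. These 9 were Acat2, Idi1, Fdps, Sqle, Cyp51, Msmo1, Hsd17b7, Insig1 and Stard4. Labelled deficient replicate 3 was the highest library for 12 of 26 members (46.2%), where it was highest for 15.7% of all genes. Labelled deficient replicate 1 was the lowest for 10 of 26 (38.5%), where it was lowest for 14.3% of all genes. Relative to the control mean, the median member stood at −0.13, −0.03 and 0.17 (log2) in labelled deficient replicates 1, 2 and 3, and at −0.00, 0.03 and −0.04 in the controls. The libraries labelled deficient thus lay on both sides of the controls. Each library is 1 sample, so this order of libraries is a description with no test.

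**Figure D4:**
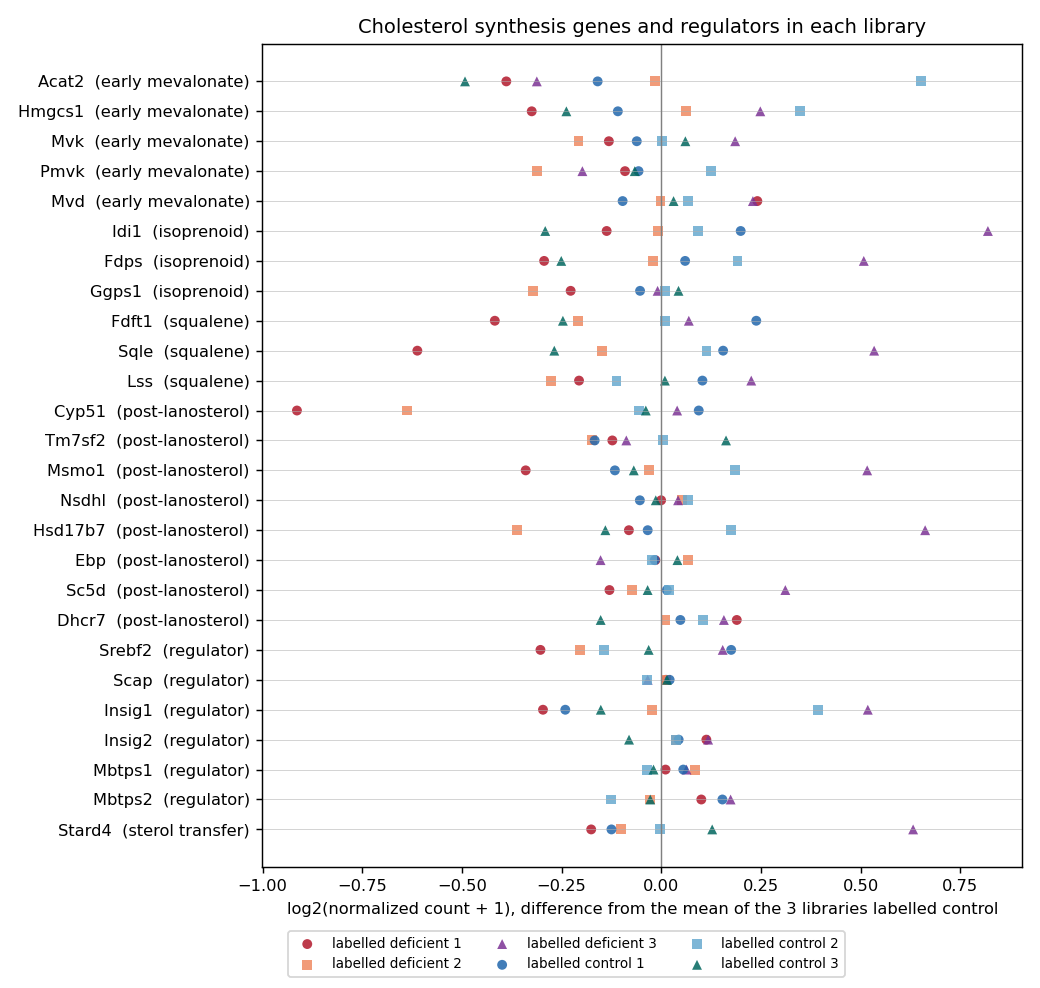
Difference of each member's log2(normalized count + 1) from the mean of the 3 libraries labelled control, with 1 symbol per library. Labelled deficient replicate 3 (purple triangles) is farthest right for 12 of 26 members and labelled deficient replicate 1 (red circles) farthest left for 10.

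Cell type markers moved between the same libraries. The sum of 10 macrophage markers was 28322, 41406 and 8843 under the deficient label and 5599, 11155 and 7527 in the controls. Labelled deficient replicate 3 was thus the lowest of its group and within the control range. Lyz2 made up most of that sum in labelled deficient replicates 1 and 2 (16075 and 25364). Of the 10 genes, 8 had log2 differences above 0, while Mrc1 (−0.44) and Cd14 (−0.04) lay below. Adgre1, Csf1r, Mrc1 and Cd14 were higher in labelled control replicate 2 than in labelled deficient replicate 1. The sum of 8 white adipocyte markers was 13764, 22692 and 16677 against 20148, 54958 and 24443, with Lep, Retn or both at 0 in labelled deficient replicates 1 and 3. Plin4 made up most of that sum under the deficient label (13196, 11426 and 16289) and had 15032 to 16649 in the controls. Without Plin4 the other 7 markers summed to 568, 11266 and 388 against 3498, 39927 and 8848, and Adipoq, an adipocyte hormone gene, had 13.3, 1711 and 1.01 against 575, 5082 and 1010. The median log2 difference of the 8 genes was −4.94. The 5 brown adipocyte markers summed to 171, 10246 and 529 against 3431, 10057 and 535, with Ucp1 or Elovl3 at 0 in some libraries. Erythroid markers summed to 103, 238 and 587 against 3841, 5698 and 15188. Of the listed markers that passed the filter, limma called 0 of the 10 macrophage and 0 of the 8 white adipocyte genes. It also called 0 of the 5 brown adipocyte and 0 of the 4 erythroid genes. In that order, 3, 6, 0 and 4 of them had an unadjusted p under 0.05, against 12.2% of all genes tested. Endothelial marker sums ran from 68849 to 97819. Of 8 adventitial fibroblast markers 0 were called and 4 had an unadjusted p under 0.05, in opposite directions: log2 differences were −0.93 for Dcn and −0.30 for Pdgfra but 0.65 for Col1a1 and 0.50 for Col1a2, collagen genes that smooth muscle also expresses. The part of these cell types in the members' values was not tested. Without the library with the higher adipocyte sum in each group (replicate 2 of both), 0 members were called and the members' median log2 difference was 0.04.

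Neighbouring pathways were read beside the members. Of 18 fatty acid synthesis and SREBP-1 genes, limma called 0. An unadjusted p under 0.05 was found for 4 of the 18, against 12.2% of all genes tested. The median log2 difference over all 18 was −0.17. Scd1, a stearoyl-CoA desaturase, had 6846, 50511 and 6709 under the deficient label and 20208, 98759 and 21587 in the controls. Fasn, the fatty acid synthase, had 2317, 9379 and 2601 against 3363, 9797 and 3832. Both were highest in replicate 2 of each group, the libraries with the higher adipocyte sums. Labelled deficient replicate 3, the highest library for 12 of 26 members (46.2%) and for 15.7% of all genes, was not the highest for either. Scd2, the desaturase of many non-adipose tissues, had 10879, 9979 and 11423 against 7975, 8578 and 6784, with groups that did not overlap (log2 difference 0.47, SE 0.10, limma adjusted p = 0.119). Acss2, which makes acetyl-CoA from acetate, had 472, 655 and 460 against 706, 933 and 673 (limma adjusted p = 0.266). Fads2, a desaturase of polyunsaturated fatty acids, had 3819, 3456 and 3651 against 2748, 2567 and 2521 (log2 difference 0.48, SE 0.07, limma adjusted p = 0.0583). Acss2 and Fads2 were chosen after their values were seen.

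**Figure D5:**
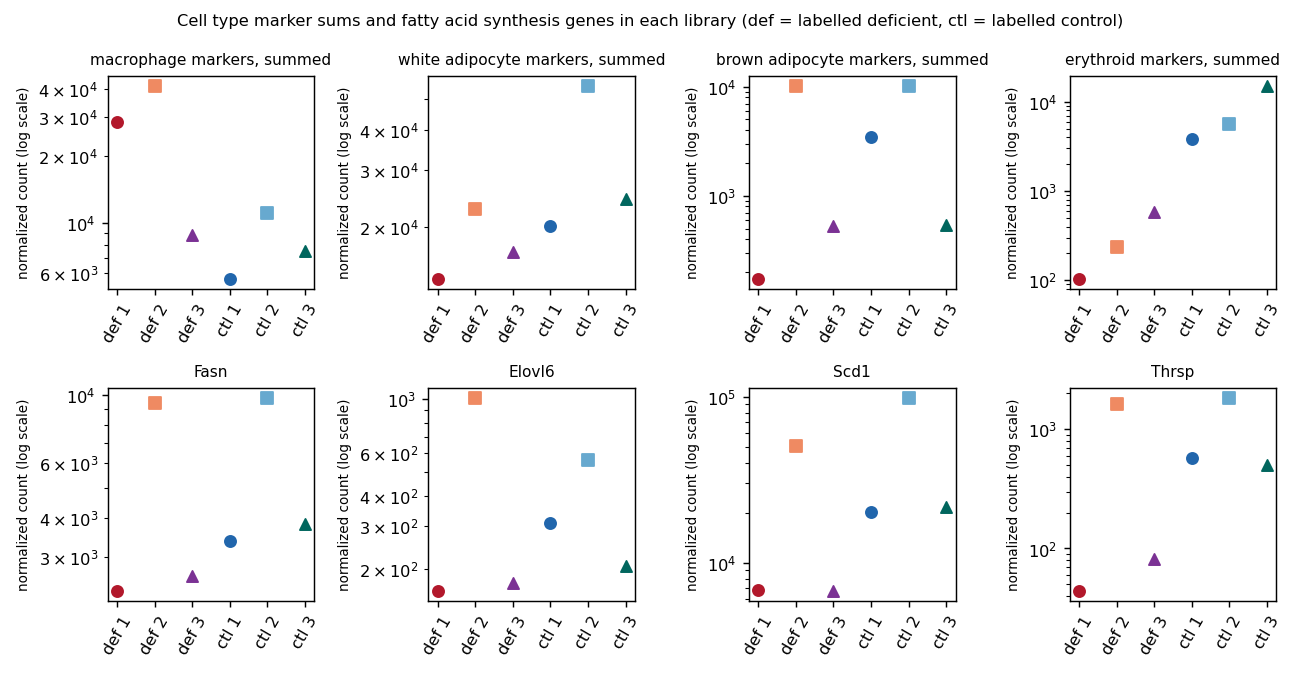
Summed normalized counts of 4 cell type marker lists (top) and normalized counts of 4 fatty acid synthesis genes (bottom) in each library, on log axes. Fasn, Elovl6, Scd1 and Thrsp are highest in replicate 2 of each group, as is the white adipocyte sum. They are 4 of 18 listed genes, with Elovl6 and Thrsp chosen after their values were seen. Not all of the list follows: Srebf1, Scd2 and Fads2 were lowest in replicate 2 among the labelled deficient libraries. The macrophage sum is highest in labelled deficient replicates 1 and 2.

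The remaining lists also held 0 called genes by limma. Of 12 tested genes for electron donors and accessory proteins of sterol synthesis, 0 had an unadjusted p under 0.05. The share over all genes tested was 12.2%, which also applies to the other lists below. Cyb5r3, which feeds electrons to cytochrome b5, had 20490 to 23034, Pgrmc1 6388 to 7062 and Cyb5b 5110 to 6612. The nonsterol isoprenoid branch had 16 tested genes, again with 0 at an unadjusted p under 0.05. Its most abundant genes Nus1, Zmpste24 and Icmt had ranges of 3629 to 3966, 3576 to 4006 and 3316 to 3813. Of 11 genes for sterol-regulated degradation and SREBP processing, 1 had an unadjusted p under 0.05. That gene was Rnf145, which encodes a ubiquitin ligase. It had 2386, 2443 and 2314 under the deficient label and 1770, 2273 and 1688 in the controls (log2 difference 0.33, SE 0.11, limma adjusted p = 0.301). Marchf6, also a ubiquitin ligase gene, ranged from 3688 to 4174. Of 14 genes for sterol movement and oxysterol synthesis, 2 had an unadjusted p under 0.05. Osbpl9 ranged from 5974 to 6513, Npc2, which carries cholesterol out of lysosomes, from 3815 to 5816, and Osbpl5 from 3030 to 3631. The median log2 differences of these 4 lists were −0.05, −0.03, −0.02 and 0.08.

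Read sharing limits some of these values. At 95% identity over at least 200 bases, transcripts of 7 members matched another gene without exon overlap. Acat2 matched Acat3 over 1477 bases at 97.7% identity (mean normalized count 27.7) and Tcp1 over 445 bases (mean 6935). Fdps matched 4 gene models, Idi1 2, and Fdft1 and Ggps1 1 each, all with means of at most 3.11. Reads shared by such copies may be lost or divided, so the levels of these members are uncertain. Dhcr7 and Msmo1 matched 22 and 10 genes over stretches of 200 to 227 bases. Ggps1 overlaps Arid4b on the opposite strand over 5.44% of its exon bases (Arid4b 2323 to 3181). Mbtps2 and Fdps share 28.4% and 26.7% of theirs with same-strand neighbours, Yy2 and Gm43738, which are listed at 0 in all 6 libraries.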

How the data were processed

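The authors' deposited table gives, for 55487 genes, a signal per library: read counts divided by 1 size factor, so that 100% of values are whole multiples (tolerance 0.001) of the smallest, from which reads were recovered. Other deposited columns are the authors' p-value, adjusted p-value, test score and log2 fold change. Per the submitters' processing notes, the genome build was GRCm38 and the tools were DESeq2 1.36.0 in R 4.2.0, featureCounts 2.0.1, HISAT2 2.2.1 and bcl2fastq 2.20; which annotation and strand setting were used is not given here. Per the labels' protocols, libraries were TruSeq Stranded mRNA, paired-end 50 bp.

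The test was limma 3.58.1 with trend on log2(normalized count + 1) for genes with a mean of at least 1, in R 4.3.3, over all 6 libraries with no covariate. P-values were two-sided, adjusted by Benjamini-Hochberg over all genes tested, and called under 0.05. Log2 differences are labelled deficient minus labelled control on that scale, which understates changes of low genes. Alternatives were a pseudocount of 0.5, no filter, TMM scaling, edgeR 4.0.16, DESeq2 1.42.0, a Y-linked covariate and each library left out. Those leaving out the 2 libraries without Y-linked expression, or the library with the higher adipocyte sum in each group, were chosen after seeing the data. The script was checked on simulated data. Intervals are at 95%. Exon lengths and overlaps come from GENCODE for GRCm38, copies from blastn 2.17.0 and promoters from RefSeq GRCm38.p6.

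No measured value enters the rule that picks the members, but the members and lists were proposed with earlier results of these data known. Genes named are all members, in each other list the called genes or else the most abundant until 3 are named, overlapping genes, Xist and Ddx3y; other names were chosen after their values were seen. Of the genes this rule takes, 1 is not reported here.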

Additional observations from a re-analysis of the deposited data

How the results depend on the processing

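In all 6 libraries, 0 members were called under every pseudocount, filter, scaling, covariate and tool tried, and under both 4-library sets. Leaving out 1 library gave 0 to 1 called members, the 1 being Cyp51 without labelled deficient replicate 3. The count of all genes called was 28; it was 91 with no filter, 0 with the Y-linked covariate, 0 in the 4 libraries with Y-linked expression, 1 with edgeR, 713 with DESeq2, and 0 to 434 with 1 library left out. For the counts of 0 by limma, 1662 genes had an unadjusted p under 0.05 with the covariate and 1285 in the 4 libraries. In those 4, labelled deficient replicate 3 is alone in its group and is assumed to vary like the controls. The covariate fit rests its group difference mostly on the same library.

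Differences of many members changed sign, that of Cyp51 included. With the Y-linked covariate, log2 differences were 0.16 for Hmgcs1, 0.17 for Mvk, 0.0039 for Fdft1, 0.39 for Sqle, 0.20 for Lss and 0.11 for Srebf2, and the sizes of Cyp51 (−0.07) and Ggps1 (−0.01) fell without a change of sign. In the 4 libraries with Y-linked expression they were 0.25 for Hmgcs1, 0.19 for Mvk, 0.069 for Fdft1, 0.53 for Sqle, 0.23 for Lss, 0.0398 for Cyp51 and 0.15 for Srebf2. Without the library with the higher adipocyte sum in each group they were 0.135 for Hmgcs1, 0.0275 for Mvk and 0.0177 for Sqle. With 1 library left out, the lowest and highest log2 differences were −0.48 and 0.0872 for Acat2, −0.0836 and 0.0262 for Ebp, −0.16 and 0.24 for Fdps, −0.13 and 0.17 for Hmgcs1, −0.22 and 0.29 for Hsd17b7, −0.0722 and 0.41 for Idi1, −0.16 and 0.26 for Insig1, −0.24 and 0.00967 for Lss, −0.18 and 0.24 for Msmo1, −0.17 and 0.0269 for Mvk, −0.10 and 0.12 for Sc5d, −0.0213 and 0.0115 for Scap, −0.38 and 0.19 for Sqle, −0.14 and 0.27 for Stard4, and −0.78 and −0.30 for Cyp51. The causes were not tested. No paired analysis was possible because the labels carry no replicate numbers. With 3 libraries a group the members' 95% intervals reached from −1.01 (Cyp51) to 0.82 (Idi1), which limits the precision.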
